A study of Mus musculus with 7 samples.

Results

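The unfolded protein response and the integrated stress response were followed through 10 genes in cells washed from mouse lungs 3 days after lipopolysaccharide. The genes were taken by symbol: the endoplasmic reticulum (ER) chaperones and folding enzymes Hspa5, Hsp90b1, Calr, Pdia4 and Pdia6, the stress sensor gene Ern1 with its target Xbp1, and the transcription factor genes Atf4, Atf3 and Ddit3. All 10 were among the 16476 genes of the deposited table, and all 10 passed the minimum mean normalized count of 10 that left 12963 genes for testing. A normalized count is a library's read count divided by a size factor for its depth.

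The material was bronchoalveolar lavage, the cells that phosphate-buffered saline rinses out of the airspaces, from C57BL/6 mice. The control group was 4 libraries of the genotype LysM Cre, in which the Cre recombinase is driven from the lysozyme M locus, active mainly in macrophages and neutrophils. The knockout group was 3 libraries of the genotype Netrin1loxp/loxp LysM Cre, in which floxed alleles of Ntn1 (netrin-1, a secreted guidance protein) were added to the same Cre. Every mouse in both groups had received lipopolysaccharide into the trachea, every sample had been depleted of neutrophils with antibodies, and no untreated group was analysed here. The sources used here give neither the mice's age and sex nor whether a library held 1 animal or a pool; p-values therefore reflect only library-to-library spread, which may be technical.

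Secretory and membrane proteins fold in the ER, and the unfolded protein response matches the folding capacity of that compartment to its load. Misfolded proteins draw the chaperone BiP, the product of Hspa5, away from sensors in the ER membrane. The sensor IRE1 alpha, the product of Ern1, then splices the messenger of Xbp1, the sensor PERK phosphorylates the translation factor eIF2 alpha, and ATF6 moves to the Golgi to be cleaved. The integrated stress response joins PERK with other eIF2 alpha kinases that sense amino acid shortage, double-stranded RNA or lack of haem, and its common output is translation of Atf4. In macrophages, Toll-like receptor signalling is also known to engage the IRE1 alpha and XBP1 branch.

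The element through which ATF6 and XBP1 act on chaperone genes is shown first. Its part in the values given below was not tested. It was searched in RefSeq promoter windows of GRCm38.p6, from 250 bases before to 50 bases after each annotated start, on both strands, as CCAAT, 9 bases of any kind and CCACG. All 10 genes had a window. The exact element lay in the windows of 4 of the 10, Hspa5, Hsp90b1, Calr and Pdia6, whereas 37 of 27025 genes with a window held it (0.137%, or 0.119% of 32851 windows). Each match is printed 5′ to 3′ on the strand that reads CCAAT first, with 20 bases on either side, and capitals mark the letters the element fixes.
Hspa5: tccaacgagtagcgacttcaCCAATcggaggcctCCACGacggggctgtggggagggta
Hsp90b1 upstream match: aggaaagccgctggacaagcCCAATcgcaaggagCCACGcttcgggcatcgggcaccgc
Hsp90b1 downstream match: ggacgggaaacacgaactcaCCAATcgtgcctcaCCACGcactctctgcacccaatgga
Calr: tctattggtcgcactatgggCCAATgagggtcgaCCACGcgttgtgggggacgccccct
Pdia6: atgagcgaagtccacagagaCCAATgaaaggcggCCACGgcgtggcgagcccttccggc

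The printed stretches lie at chr2:34772005-34772063 (plus strand) for Hspa5, chr10:86705618-86705676 (minus strand) and chr10:86705513-86705571 (plus strand) for Hsp90b1, chr8:84847055-84847113 (plus strand) for Calr and chr12:17266471-17266529 (plus strand) for Pdia6. Distances run from the RefSeq starts of the windows, which differ from the starts of the GENCODE gene spans given below. The element of Hspa5 began 65 bases before the RefSeq start and that of Pdia6 98 bases before it. Both lay in the direction of the gene. By the GENCODE span, which begins at 34771970, the Hspa5 element lies inside the gene. In Hsp90b1 the elements spanned 212 to 194 bases before the start in the direction of the gene and 107 to 89 bases before it on the opposite strand, and in Calr 162 to 144 bases before it on the opposite strand. Of the other elements searched, ER stress element II (ATTGG, 1 base, CCACG; 0.0365% of windows), the unfolded protein response element TGACGTGG (0.676%) and the C/EBP-ATF element TGATGNAAT (0.965%) had no exact match in the windows of the 10 genes. A match is a description of the letters, and a window without one says only that these letters are not in it.

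The reads behind the table came to between 9903284 and 13353733 per library. Ntn1 itself had 1, 4, 9 and 3 reads across the controls (replicates 1 to 4) and 1, 0 and 1 across the knockouts (replicates 1 to 3), where a count of 0 allows up to 3 reads, so its loss could not be judged at this depth. Lyz2, the gene of the Cre locus, stood at 76927 and 118781 normalized counts in control replicates 1 and 4 and between 721.3 and 1052 in the other 5 libraries. Thus 2 control libraries stood apart from libraries whose labels name the same Cre. The genotypes as given above do not state the number of Cre alleles. Markers of alveolar macrophages were abundant in both groups, with 10 of 10 tested and a summed normalized count of 56604 to 91325 in controls and 74053 to 122040 in knockouts. Across all genes tested, 21.7% were called between the groups by limma at an adjusted p under 0.05, 10.4% higher in knockouts and 11.3% lower.

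Of the 10 genes, 2 were called, both higher in knockouts: Ern1 and Xbp1. None was called lower, and the knockout means of the 5 chaperone and folding genes, Atf4 and Ddit3 differed from the control means by between -6.72% and 2.31%. The share called, 2 of 10, is near the 21.7% of all genes tested, so the count by itself is not a result about this pathway. On the recovered reads edgeR called the same 2 (22.1% of all genes), and DESeq2 called these and Atf3 (23.3%). The median log2 fold change of the 10 was 0.01, and that of all 12963 genes was 0.01. Knockouts lay wholly above controls for 2 of the 10 and wholly below for none, where 17.4% and 16.3% of all genes did so (33.8% in either direction).

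**Figure D1:**
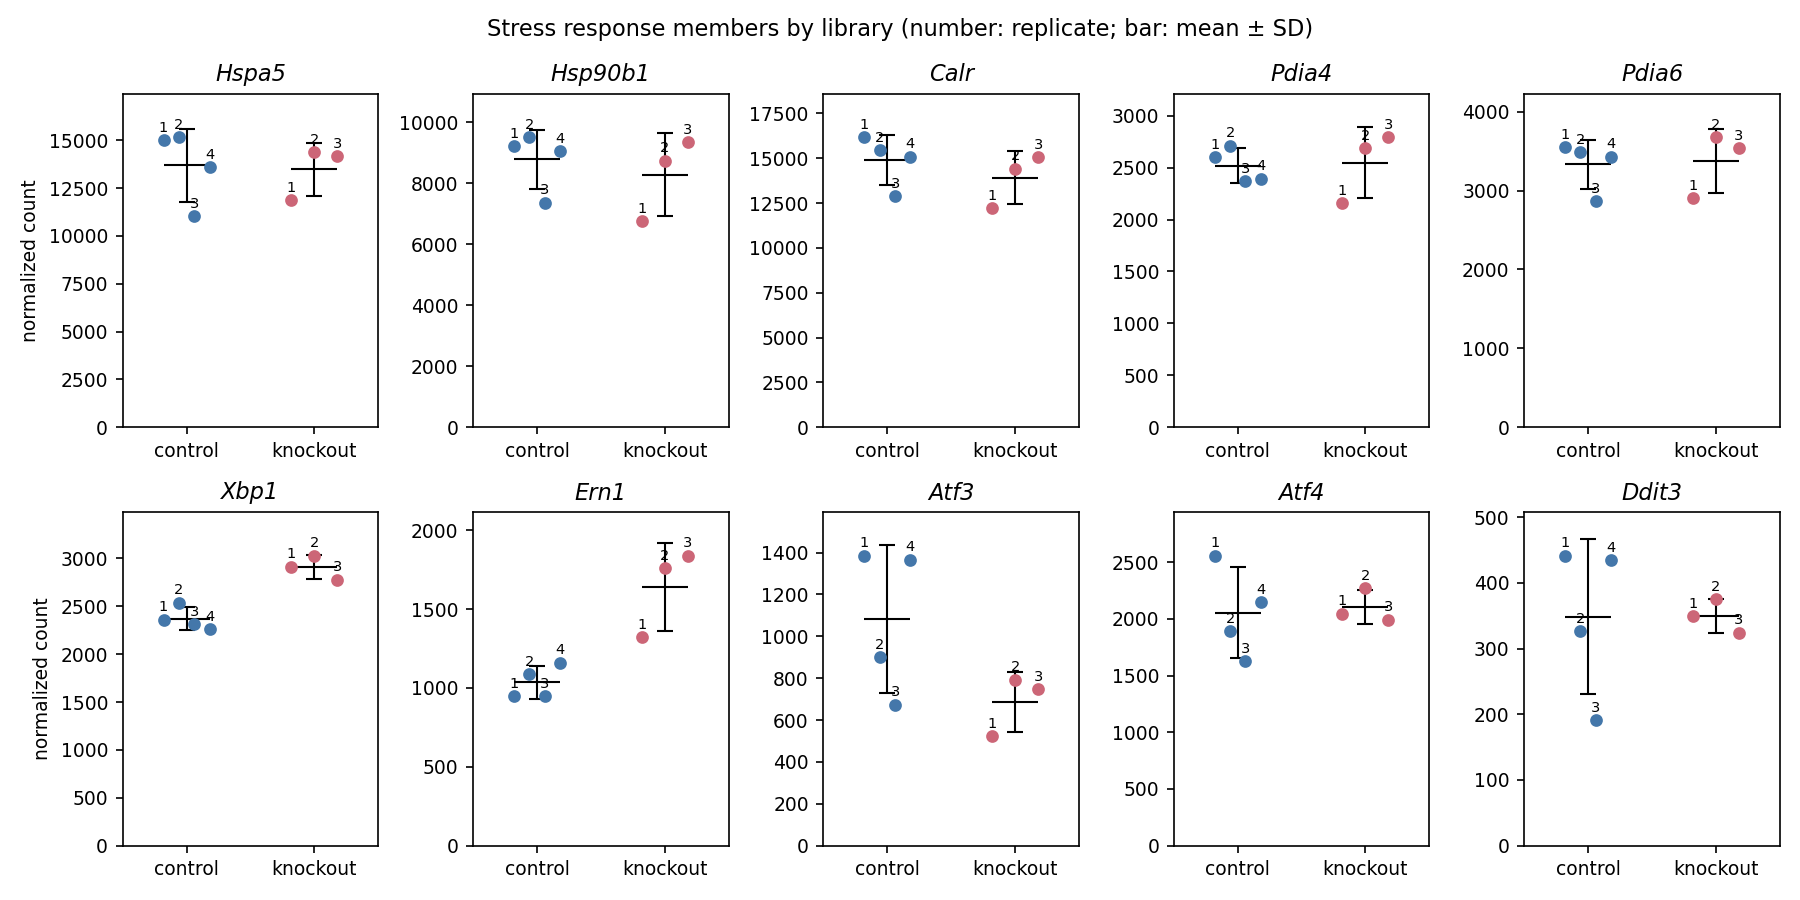
Normalized count (vertical axis, from 0) of each of the 10 genes in every library, with controls in blue and knockouts in red; the small number is the replicate, and the bar is the mean ± SD of 4 controls or 3 knockouts. For Xbp1 and Ern1 all knockout points lie above all control points, and for the other 8 genes the groups overlap.

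Ern1 (ENSMUSG00000020715, GRCm38 chromosome 11, 106394650 to 106487852, minus strand) encodes IRE1 alpha, the kinase and endoribonuclease that starts the XBP1 branch. The controls, in replicate order, stood at 947.6, 1088, 947.8 and 1161 normalized counts, and the knockouts at 1324, 1758 and 1840. Every knockout library was above every control library, and knockout replicate 1 was the nearest to the controls. The mean went from 1036 ± 106 (SD, n = 4) to 1641 ± 277 (SD, n = 3), which is 0.65 on the log2 scale (SE 0.13, limma adjusted p = 0.00874). The 95% interval of the fold ran from 1.29 to 1.92. With control replicates 2 and 3 left out, the difference was 0.63 and no longer passed (adjusted p = 0.0627); the other 20 alternatives gave adjusted p-values from 7.55e-05 to 0.0469.

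Xbp1 (ENSMUSG00000020484, chromosome 11, 5520659 to 5525893, plus strand) encodes the transcription factor whose messenger IRE1 alpha splices, and it is itself a target of the response. Its normalized counts were 2361, 2539, 2312 and 2261 in the controls and 2914, 3030 and 2778 in the knockouts. The highest control, replicate 2, lay below the lowest knockout, replicate 3. The mean went from 2368 ± 121 (SD, n = 4) to 2907 ± 126 (SD, n = 3), 22.8% higher and 0.30 on the log2 scale (SE 0.07, limma adjusted p = 0.0161). Among the fits that left out libraries, the call ended without knockout replicate 2 (0.27, adjusted p = 0.0682), without control replicates 1 and 4 together (0.26, adjusted p = 0.108) and without control replicates 2 and 3 together (0.33, adjusted p = 0.0515). Over all alternatives its adjusted p lay between 0.00208 and 0.108, and its log2 fold change between 0.26 and 0.33.

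The gene count of Xbp1 holds the spliced and the unspliced messenger alike, so the activity of IRE1 alpha was not measured. The segment that IRE1 alpha removes is 26 bases long, at chr11:5524279-5524304 (plus strand), in coding exon 4 of the 5 exons of the GENCODE M21 transcript Xbp1-201. It was located between 2 loops that read CNGCAGC. It is shown because only reads that cross it could tell the forms apart, with the removed bases in capitals.
Xbp1 segment: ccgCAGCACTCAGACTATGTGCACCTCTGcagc

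**Figure D2:**
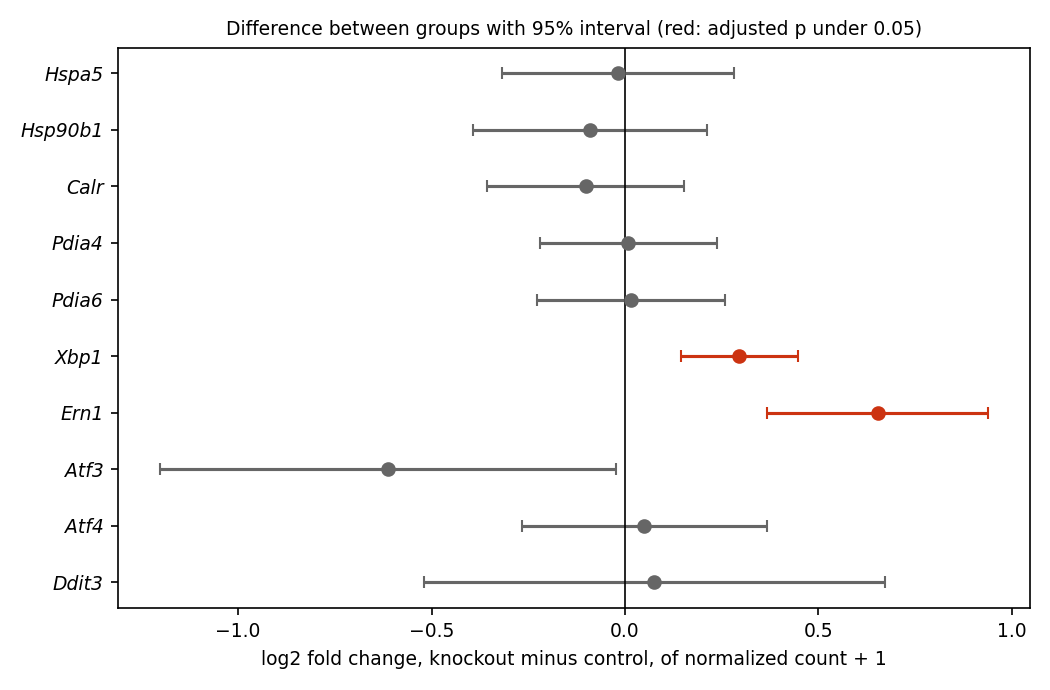
Log2 fold change of knockouts over controls for each of the 10 genes (horizontal axis), with the 95% interval from limma before adjustment for multiple testing; genes with an adjusted p under 0.05 are red. Only Xbp1 (0.30) and Ern1 (0.65) are red, and the intervals of the 5 chaperone and folding genes, Atf4 and Ddit3 cross 0. The interval of Atf3 (-1.20 to -0.02) lies below 0, but its limma adjusted p was 0.124.

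Hspa5 (ENSMUSG00000026864, chromosome 2, 34771970 to 34777547, plus strand) encodes BiP, the Hsp70 chaperone of the ER and a standard readout of the response. Its normalized counts were 15000, 15175, 11025 and 13597 in the controls and 11855, 14395 and 14181 in the knockouts. The groups overlapped over nearly their whole range, and control replicate 3 was the lowest library of all. The log2 fold change was -0.02 (SE 0.13, limma adjusted p = 0.937), and the 95% interval of the fold ran from 0.803 to 1.22.

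Hsp90b1 (ENSMUSG00000020048, chromosome 10, 86690209 to 86705509, minus strand) encodes GRP94, the Hsp90 chaperone of the ER, which folds Toll-like receptors and integrins. It stood at 9215, 9523, 7370 and 9059 normalized counts in the controls and 6768, 8747 and 9361 in the knockouts. The lowest and the second-highest library were both knockouts, and the log2 fold change was -0.09 (SE 0.13, adjusted p = 0.657; fold between 0.761 and 1.16). Its exons share 415 bases with the pseudogene 1810014B01Rik on the opposite strand and 84 with the transcript Gm15344; their means were 19.7 and 31.7 normalized counts, and with the strand setting of the counting not given such reads cannot be told apart.

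Calr (ENSMUSG00000003814, chromosome 8, 84841850 to 84846934, minus strand) encodes calreticulin, a calcium-binding chaperone that recognises sugars on new glycoproteins and helps load MHC class I. It stood at 16185, 15459, 12898 and 15080 normalized counts in the controls and 12233, 14426 and 15053 in the knockouts. The groups overlapped, and the difference was -0.10 on the log2 scale (SE 0.11, limma adjusted p = 0.552; fold between 0.782 and 1.11). Pdia4 and Pdia6 (chromosome 6, 47796141 to 47813430, and chromosome 12, 17266545 to 17284770) encode protein disulfide isomerases. Pdia4 stood at 2602, 2712, 2368 and 2393 in the controls and 2155, 2689 and 2795 in the knockouts, so that its lowest and its highest value were in knockout replicates 1 and 3. Pdia6 stood at 3546, 3488, 2868 and 3427 in the controls and 2907, 3678 and 3535 in the knockouts. Their log2 fold changes were 0.01 (SE 0.10, adjusted p = 0.96) and 0.02 (SE 0.11, adjusted p = 0.934), with folds between 0.859 and 1.18 and between 0.854 and 1.20. The 95% intervals of these 5 genes thus leave room for folds from 0.761 to 1.22, and a missed threshold does not show that the levels were equal.

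Atf4 (ENSMUSG00000042406, chromosome 15, 80255184 to 80257541, plus strand) encodes the transcription factor at the centre of the integrated stress response, which is controlled mainly at translation. Its normalized counts were 2560, 1894, 1626 and 2149 in the controls and 2048, 2274 and 1993 in the knockouts. The knockouts lay inside the range of the controls (log2 fold change 0.05, SE 0.14, limma adjusted p = 0.82; fold between 0.831 and 1.29).

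Ddit3 (ENSMUSG00000025408, chromosome 10, 127290774 to 127296288, plus strand) encodes CHOP, which promotes cell death under lasting stress. It stood at 441.8, 326.8, 191.2 and 435.1 normalized counts in the controls and 349.8, 375 and 324.3 in the knockouts. The 3 knockouts were close together within the wide range of the controls (349 ± 118, SD, n = 4, against 349.7 ± 25.3, SD, n = 3; log2 fold change 0.08, SE 0.26, adjusted p = 0.858). Its 95% interval, a fold between 0.698 and 1.59, was the widest upward among the 8 genes that were not called. Its exons share 68 bases with Mars, a gene on the opposite strand with a mean of 585.2 normalized counts.

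Atf3 (ENSMUSG00000026628, chromosome 1, 191170296 to 191218039, minus strand) encodes a factor that stress and Toll-like receptor signals induce and that restrains inflammatory genes. The controls, in replicate order, stood at 1386, 899.2, 673.5 and 1366 normalized counts, and the knockouts at 522.2, 792.3 and 747.1. Control replicate 3 lay below 2 of the knockouts, so the groups overlapped. The control mean was 1081 ± 353 (SD, n = 4) and the knockout mean 687.2 ± 145 (SD, n = 3). The difference of -0.61 on the log2 scale (SE 0.26, limma adjusted p = 0.124) did not pass. The authors' deposited table gave Atf3 a log2 fold change of -0.50 with an adjusted p of 0.0468, and DESeq2 on the recovered reads gave -0.66 (adjusted p = 0.0407). Without control replicate 3 the log2 fold change was -0.82 (limma adjusted p = 0.0332) and without control replicates 2 and 3 together -1.02 (limma adjusted p = 0.0206), while without control replicates 1 and 4 together it was -0.20 (limma adjusted p = 0.563), the ends of the range over all alternatives.

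The highest controls for Atf3 and Ddit3 were replicates 1 and 4, the libraries with the high Lyz2 values given above, and Atf4 also was highest in these (2560 and 2149). Without those libraries the log2 fold change of Ddit3 was 0.48 and that of Atf4 was 0.26, and without control replicates 2 and 3 they were -0.33 and -0.16; none of these 4 values passed (limma adjusted p between 0.0936 and 0.376). The part of the Lyz2 difference in these values was not tested.

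Levels of different genes were compared as RPKM, reads scaled to exon length in kilobases and to the depth of the library. In controls the order was Calr (423 ± 31.4, SD, n = 4), Hspa5 (264 ± 32.9), Hsp90b1 (178 ± 16.7), Pdia4 (85.9 ± 5.42), Pdia6 (72.7 ± 5.39), Atf4 (71.1 ± 12.1), Xbp1 (59.7 ± 3.55), Atf3 (40.8 ± 12.4), Ddit3 (16.5 ± 5.25) and Ern1 (10.4 ± 1.01). The control ranges of Pdia6 and Atf4, of Atf4 and Xbp1 and of Ddit3 and Ern1 overlapped, and the other neighbours in this order did not. In knockouts Xbp1 (74.5 ± 4.09, SD, n = 3) overlapped Pdia6 and Atf4, and Ern1 (16.7 ± 3.20) overlapped Ddit3 (17.0 ± 1.41). The messenger of the sensor thus had the lowest mean of the 10 in both groups, though within the range of Ddit3, and those of the chaperones Calr, Hspa5 and Hsp90b1 the most abundant. With the longest annotated transcript as the length, the control order of the middle genes became Pdia6 (125), Xbp1 (91.0), Pdia4 (85.9) and Atf4 (83.1), and the order of the other 6 was the same.

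**Figure D3:**
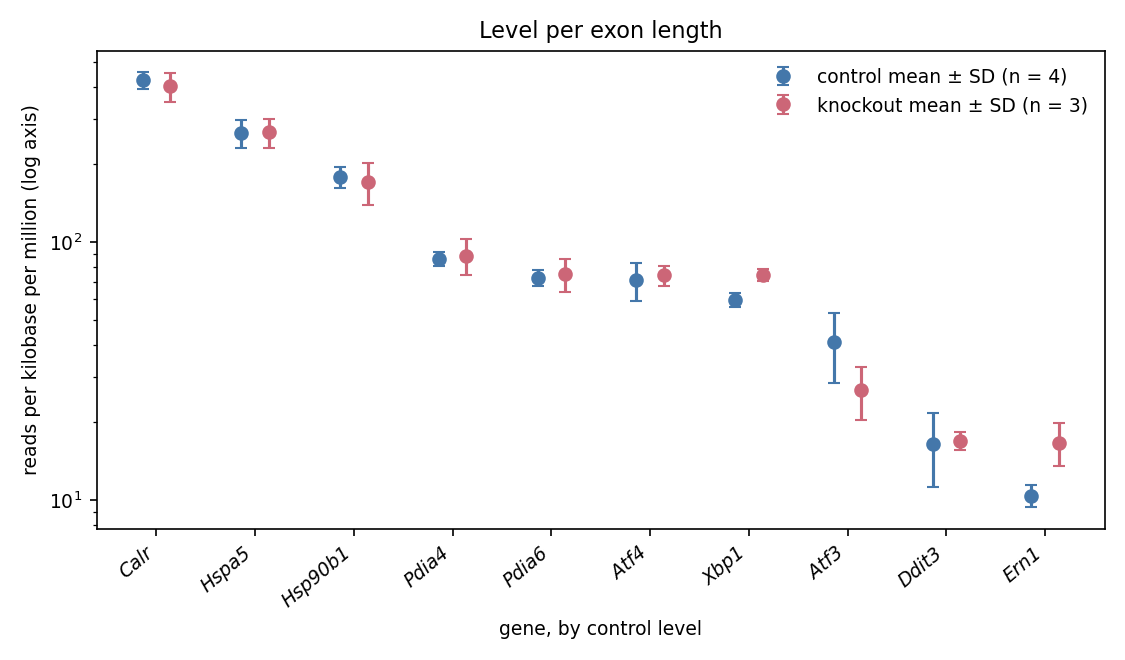
RPKM (reads scaled to exon length and library depth, log axis) of the 10 genes, ordered by their control level; points are means and bars the SD of 4 controls (blue) or 3 knockouts (red). The axis spans the 423 of Calr to the 10.4 of Ern1 in controls.

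The 5 chaperone and folding genes varied together from library to library, within both groups. Control replicate 3 was the lowest control for 5 of 5 and knockout replicate 1 the lowest knockout for 5 of 5, where 29.4% and 40.5% of the 12963 genes tested had their lowest value of the group in these libraries. On the log2 scale these genes lay between 0.09 and 0.30 below the group mean in control replicate 3 and between 0.18 and 0.28 below it in knockout replicate 1. Atf3, Atf4 and Ddit3 also were lowest among controls in control replicate 3, with deviations of -0.62, -0.32 and -0.79. In knockout replicate 1 their deviations were -0.37, -0.04 and 0.003. Ern1 deviated by -0.12 in control replicate 3 and by -0.29 in knockout replicate 1. Xbp1 did not share the pattern, with deviations of -0.03 in control replicate 3 and 0.004 in knockout replicate 1. Of the 24 other ER folding genes in the table, 16 were lowest among controls in control replicate 3 and 18 lowest among knockouts in knockout replicate 1. The dip was not particular to ER genes. The summed normalized count of 15 cytosolic and mitochondrial heat shock genes was 44080 in control replicate 3 against 54656 to 63348 in the other controls. In knockout replicate 1 that sum was 49030, against 62627 and 61804 in the other knockouts. The sum of ER-associated degradation and translocation genes differed among controls, being lowest in control replicate 4 (34898) and next lowest in control replicate 3 (35495). Among knockouts that sum was lowest in knockout replicate 1 (37103, against 38246 and 38493 in the other knockouts).

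**Figure D4:**
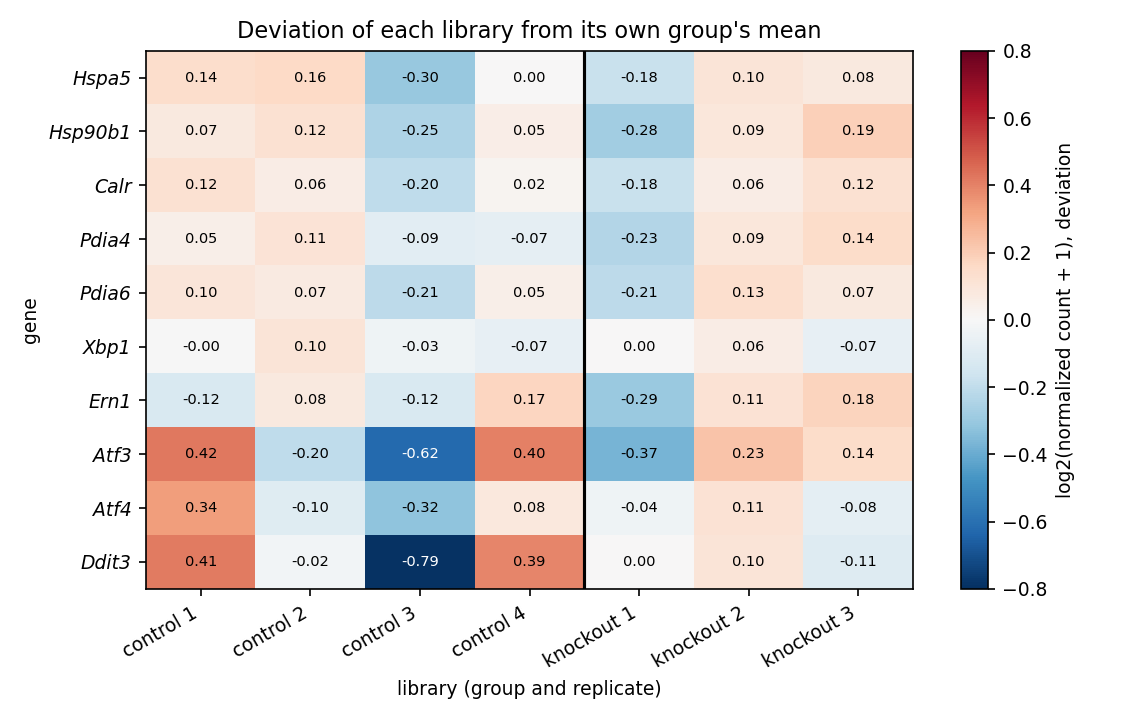
Deviation of log2(normalized count + 1) in each library (columns) from the mean of its own group, for the 10 genes (rows); blue is below and red above the group mean, and the line parts controls from knockouts. The column of control replicate 3 is below the mean for all 10 genes and the column of knockout replicate 1 for 8 of 10.

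Erythroid, neutrophil, dendritic cell and plasma and B cell markers had their highest sum of the group in these same libraries. The summed normalized count of the 7 erythroid markers was 26211 in control replicate 3 against 1254, 10537 and 4235 in the other controls, and 136707 in knockout replicate 1 against 10593 and 6936 in the other knockouts. The sum of the 15 neutrophil markers was 43674 in control replicate 3 against 32798 to 40696 in the other controls, and 132134 in knockout replicate 1 against 48888 and 53282. Other lists were mixed or did not move this way. The epithelial sum was the lowest of the controls in control replicate 3 (526.6) but the highest of the knockouts in knockout replicate 1 (1394). The natural killer cell sum was highest of the controls in control replicate 3 (17167) but lowest of the knockouts in knockout replicate 1 (50062). The monocyte and recruited macrophage sum was highest of its group in knockout replicate 1 only. The T cell and alveolar macrophage sums were highest of their group in neither library. In bulk RNA, fewer cells of a type and less RNA per cell cannot be told apart, and the part of these cells in the low chaperone values was not tested. Without control replicate 3 the log2 fold change of Hspa5 was -0.12 and without knockout replicate 1 it was 0.072, and it passed in neither case.

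The likeness of library patterns was measured as the root mean square difference of log2(normalized count + 1), each gene centred on its mean over the 7 libraries. Among 12962 other genes, Pdia6 ranked 4 in likeness to Hspa5 (difference 0.0584), Calr 20, Hsp90b1 31 and Pdia4 97. Atf4 ranked 1133, Xbp1 4247, Ddit3 7454, Ern1 9396 and Atf3 10008. Between any pair of the 5 chaperone and folding genes the difference was 0.0584 to 0.101. The 5 nearest genes outside the list were Pomk, a kinase of O-mannosyl sugars (0.0353), Ptges3, a cochaperone of Hsp90 (0.0521), the mitochondrial carrier gene Slc25a14 (0.0581), the ER chaperone gene Hyou1 (0.0593) and Nfya, a subunit of the factor that binds CCAAT (0.0604). The median difference from Hspa5 over the genes tested was 0.261, above that of Atf4 (0.153) and Xbp1 (0.216) and below that of Ddit3 (0.288), Ern1 (0.365) and Atf3 (0.403). This measure also depends on how much each gene varies, and a gene that hardly varies can score low without sharing the pattern. The places of Atf4 and Xbp1 below the median therefore do not show a shared pattern. These are descriptions over 7 libraries, and because all genes are read from the same libraries, differences in depth and cell makeup between libraries enter every pattern.

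Ern1 and Xbp1 were called and Hspa5 was not, so their log2 ratios to Hspa5 were taken within each library, where the scaling cancels. The log2 ratio of Ern1 to Hspa5 was -3.98, -3.80, -3.54 and -3.55 in the controls and -3.16, -3.03 and -2.94 in the knockouts, with no overlap. The log2 ratio of Xbp1 to Hspa5 was -2.67, -2.58, -2.25 and -2.59 in the controls and -2.02, -2.25 and -2.35 in the knockouts, and here control replicate 3 lay within the knockouts. The log2 ratio of Atf3 to Atf4 was -0.89, -1.07, -1.27 and -0.65 in the controls and -1.97, -1.52 and -1.41 in the knockouts, with every knockout below every control. The log2 ratio of Ddit3 to Atf4 did not part the groups (-2.61 ± 0.33, SD, n = 4, against -2.59 ± 0.04, SD, n = 3). These ratios were chosen after the values were seen and carry no test.

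Other genes of these pathways came from lists that hold 105 genes, of which 103 were in the table and 99 were tested. Of these 99, 7 rose and 6 fell, 13.1% called against 21.7% of all genes tested, with a median log2 fold change of 0.03. Of 23 tested ER folding genes outside the 10, none rose and 1 fell (median 0.03). The gene that fell was Ero1lb, an oxidase that keeps disulfide isomerases active, with normalized counts of 852.4 ± 53.6 (SD, n = 4) in controls against 687.5 ± 57.8 (SD, n = 3) (difference -0.31 on the log2 scale, SE 0.08, limma adjusted p = 0.0295). Of the 14 tested cytosolic and mitochondrial heat shock genes none was called (median -0.08).

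Genes of ER-associated degradation and of the translocon, the channel through which new proteins enter the ER, held 6 of the 7 genes that rose. Of 21 tested, 6 rose and 1 fell, 33.3% called against 21.7% of all genes tested, and the median was 0.08 against 0.01. Sec61b, a subunit of the channel, stood at 513.9, 492.2, 531 and 492.8 normalized counts in the controls and 744.3, 729.8 and 698.3 in the knockouts (log2 fold change 0.51, SE 0.07, limma adjusted p = 0.00175). Ssr1, a subunit of the translocon-associated complex, stood at 2615, 2611, 2720 and 2499 in the controls and 3445, 3618 and 3813 in the knockouts (0.47, SE 0.06, adjusted p = 0.00225). In both genes the spread within a group was small against the distance between the groups. Sec61g, another subunit of the channel, rose by 0.51 (adjusted p = 0.0251), with knockout replicate 1 at 524.2 and the other knockouts at 364.4 and 374. Selenos, a selenoprotein of the degradation machinery, rose by 0.28 (adjusted p = 0.0178), and Spcs2 and Sec61a1, named after their values were seen, rose by 0.25 and 0.26. Sel1l, the scaffold of the main degradation ligase, fell by 0.28 (adjusted p = 0.0469). The tested genes of this list that did not pass included Sec62 (0.04), Sec63 (-0.05), Ssr3 (0.07), Srprb (0.22) and Spcs1 (0.13), of protein entry. Of degradation, Edem1 (-0.08), Syvn1 (0.01), Derl1 (0.08), Herpud1 (0.26) and Edem3 (-0.24) did not pass. For Edem1 and Edem3 every knockout lay below every control, as for 16.3% of all genes tested.

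Another list held 13 tested genes: the other stress sensors and eIF2 alpha kinases, eIF2 alpha itself (Eif2s1), its phosphatase subunits, the proteases that cleave ATF6 (Mbtps1 and Mbtps2), the IRE1 alpha adaptor Traf2 and the Xbp1 ligase Rtcb. None of these rose and 1 fell, 7.69% called (median 0.003). Eif2ak4, which encodes GCN2, the kinase that senses uncharged transfer RNA, stood at 510.9, 502, 472.6 and 534.2 normalized counts in the controls and 319.4, 370.2 and 348.7 in the knockouts. Every knockout lay below every control (log2 fold change -0.54, SE 0.08, limma adjusted p = 0.00302). The genes of the other ER sensors, Eif2ak3 for PERK (0.14, adjusted p = 0.295) and Atf6 (-0.01, adjusted p = 0.946), did not pass, nor did Ppp1r15a, which encodes the phosphatase subunit GADD34 (-0.23, adjusted p = 0.487).

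Of 28 tested ATF4 and CHOP targets 1 rose and 3 fell, 14.3% called (median -0.004). Psat1, an enzyme of serine synthesis, rose by 0.32 on the log2 scale (SE 0.09, limma adjusted p = 0.037). Slc7a11, the cystine transporter, fell, with a control mean of 8806 ± 763 (SD, n = 4) and a knockout mean of 5831 ± 1181 (SD, n = 3) (-0.61, SE 0.13, adjusted p = 0.0139). Slc3a2, its partner chain, and Cebpg, a partner of ATF4 on DNA, fell by 0.29 (adjusted p = 0.0309) and 0.35 (adjusted p = 0.0247). Trib3 (-0.17, SE 0.47) and Asns (0.03, SE 0.30), commonly used readouts of ATF4 activity, did not pass (adjusted p = 0.814 and 0.951). Their 95% intervals were wide, with folds between 0.424 and 1.85 and between 0.641 and 1.63, so a change in either direction is not excluded. Gdf15 (-0.93, SE 0.42) and Ddit4 (0.52, SE 0.21) differed more and did not pass either (adjusted p = 0.147 and 0.115). Of the 13 calls among these lists, 3 (Sec61b, Ssr1 and Eif2ak4) held under all 21 alternatives. The number that rose was 2 without control replicate 4 and 3 without control replicate 2 or knockout replicate 2, and the number that fell was 2 without control replicate 1, 2 or 4 or knockout replicate 2.

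**Figure D5:**
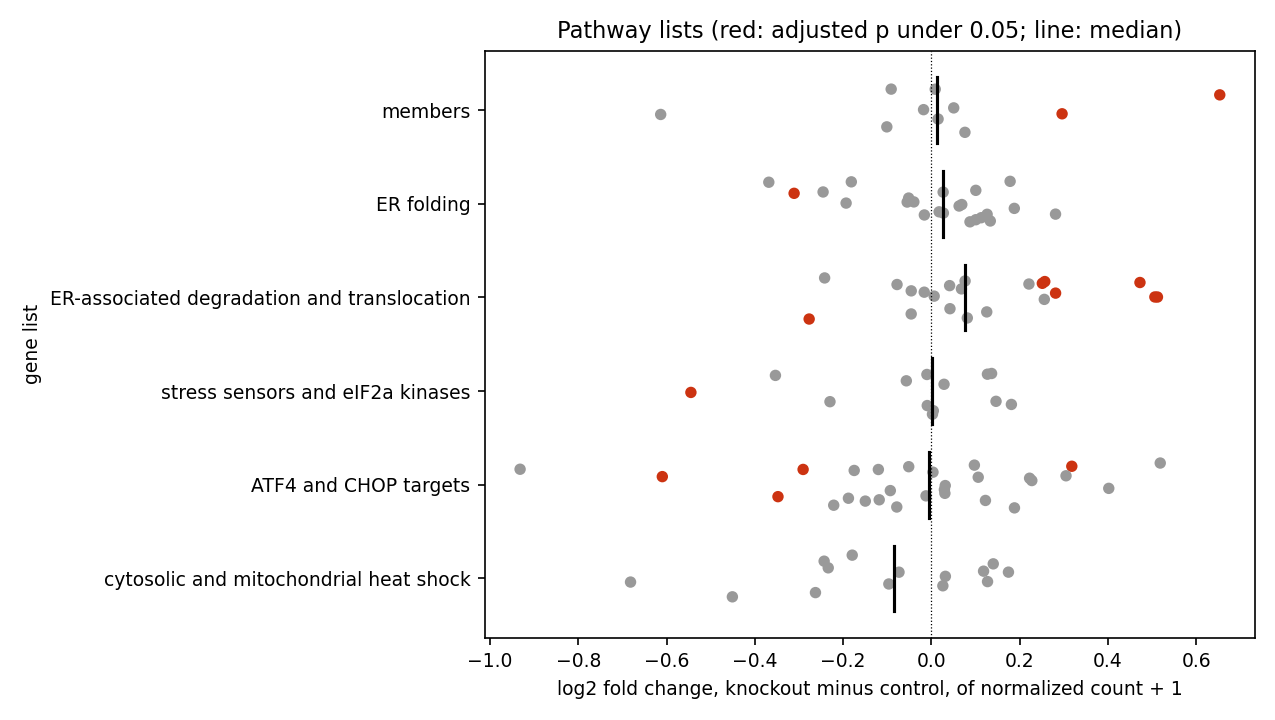
Log2 fold change of knockouts over controls (horizontal axis) for each tested gene of the 10 members and of the other pathway lists (rows, with points spread vertically at random); red points have an adjusted p under 0.05 and the black line is the list's median. The red points on the right are Ern1, Xbp1, Psat1 and 6 genes of ER-associated degradation and translocation, and all list medians lie within 0.1 of 0.

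The groups also differed in markers of several cell types. Across all genes tested 10.4% rose and 11.3% fell (21.7% called). The shares called among plasma and B cell markers (22.2%) and T cell markers (10%) were near or below that. All 10 natural killer cell markers rose, and their summed normalized count was 10393 to 17167 in controls and 50062 to 56109 in knockouts. Of 12 markers of monocytes and recruited macrophages 7 fell and 2 rose (34353 to 46213 against 24789 to 33004), of 15 neutrophil markers 7 rose (32798 to 43674 against 48888 to 132134), of 9 tested dendritic cell markers 4 rose (1402 to 2335 against 2936 to 5458), and of 12 epithelial markers 8 rose (526.6 to 611.4 against 972 to 1394). Of 9 tested markers of plasma and B cells, which depend on XBP1 to secrete antibody, 1 rose and 1 fell (3222 to 4067 against 1839 to 2316), with the plasma cell gene Mzb1 under the abundance minimum. Of 10 T cell markers 1 rose (4680 to 5658 against 4663 to 6988), and of 7 erythroid markers none was called (1254 to 26211 against 6936 to 136707). No marker in the table was at 0 in all 7 libraries. Among knockouts, replicate 1 had the highest neutrophil sum and the lowest Ern1, and Xbp1 was 2914 in that library and 2778 and 3030 in the others. The part of cell makeup in the higher Ern1 and Xbp1 values was not tested.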

How the data were processed

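The deposited table holds a signal column of normalized counts per library, which the authors made by dividing read counts by a size factor; the submitters' processing notes name the genome build GRCm38 (mm10) and the tools DESeq2, HTSeq, STAR 2.5.3a and cutadapt 1.15. The versions of DESeq2 and HTSeq, the annotation and the strand setting were not given in these sources. The authors also deposited, per the file headers, log2 fold changes with standard errors, the test statistic (a score), and p-values before and after adjustment. Values were whole multiples of 1 step in each library (100% within 0.01), so whole reads were recovered.

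Groups came from the titles. limma 3.58.1 (R 4.3.3, eBayes with trend) was fitted to log2(normalized count + 1) of the 12963 genes with a mean of at least 10, where fold changes of low genes are understated, with Benjamini-Hochberg adjustment over all of them and a threshold of 0.05. edgeR 4.0.16 (2863 calls) and DESeq2 1.42.0 (3025 calls) ran on the recovered reads as alternatives. The 10 genes, all lists and alternatives were chosen with earlier results of these data known. Named beyond the 10 were up to 4 called genes per list and direction with the smallest p, and the 5 genes nearest to Hspa5; others were named after their values were seen. Lengths and positions came from GENCODE M21 (99.84% of identifiers matched) and promoters from RefSeq. Libraries of a group differed beyond counting noise (chi-square per gene at least 7.85). The fitting script was first tested on simulated data. The lowest member count was 216 reads (Ddit3), so counting noise is small beside the spread between libraries.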

Additional observations from a re-analysis of the deposited data

How the results depend on the processing

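Over 21 alternatives, other scalings, pseudocounts, filters and count models changed no call among the 10 genes except for Atf3, lower with DESeq2 (1 gene lower). Deviations of same-numbered libraries from their group means correlated at -0.23, -0.03 and -0.19 by title and at -0.08, -0.29 and 0.08 by description. Deviations within such small groups are tied to one another, so these values cannot settle whether the numbers pair the libraries. With the replicate block by title and by description, 1 of the 10 genes was higher (Ern1; Xbp1 was 0.27, limma adjusted p = 0.0928, and 0.30, limma adjusted p = 0.084), 2 and 2 other pathway genes were higher and 1 and 1 lower, and 424 and 591 of all genes were higher and 382 and 605 lower. Without control replicates 1 and 4, 1 of the 10 was higher, 2 other pathway genes were higher and 1 lower, and 622 of all genes were higher and 577 lower. Without control replicates 2 and 3, 0 of the 10 were higher and 1 lower, and 2 other pathway genes were higher and 4 lower. Of all genes, 614 were then higher and 619 lower. Fewer libraries entered these fits. With 1 library left out at a time, 1 to 2 of the 10 were higher and 0 to 1 lower, 2 to 7 other pathway genes were higher and 2 to 9 lower, and 694 to 1173 of all genes were higher and 810 to 1293 lower.

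Log2 fold changes near 0 changed sign, none past the threshold. For Hspa5 they were 0.006 with library size scaling, 0.03 with the block by description and 0.054 without control replicates 1 and 4 (-0.12 to 0.072 with 1 library left out). For Pdia4 they were -0.015 with the block by title and -0.0025 without control replicates 1 and 4 (-0.063 to 0.12 with 1 library left out). Without control replicates 2 and 3 they were -0.055 for Pdia6, -0.16 for Atf4 and -0.33 for Ddit3, which was -0.0011 with DESeq2. With 1 library left out they were -0.19 to 0.049 for Hsp90b1, -0.055 to 0.12 for Pdia6, -0.056 to 0.16 for Atf4 and -0.19 to 0.21 for Ddit3. The cause was not tested. Other scalings moved the median of all genes by at most 0.0235 on the log2 scale.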
